A study of Homo sapiens with 4 samples.

Results

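The transcription factors ZEB1, ZEB2, SNAI1, SNAI2, TWIST1 and TWIST2 drive epithelial-mesenchymal transition, and the accessible chromatin around their genes is described here in A375 cells with and without octanoate. A375 is an established human melanoma cell line. Octanoate, a fatty acid of medium chain length, was given at 1 mM for 48 h, control cells got its vehicle isopropanol, and each group had 2 of the 4 libraries. The assay was ATAC-seq, where Tn5 transposase inserts sequencing adapters into open DNA, and per the labels libraries were sequenced to 40 to 50 M paired-end reads on average. The labels do not say whether the libraries of a group came from separate cultures, so errors may describe technical spread alone. The design asks which regions and gene signatures change with octanoate, and no other cell line, dose or time was compared.

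The members are the regions of the authors' deposited table that overlap the RefSeq GRCh38 span of 1 of these 6 genes extended by 10 kb on both sides. There were 34 of them among 125986 listed regions. ZEB2 held 15 and TWIST2 held 7, and ZEB1, SNAI1, SNAI2 and TWIST1 held 3 each. The rule used position alone and no measured value. The table has no column for a single library, so the values of each region are its mean normalized read count over the 4 libraries and the authors' log2 fold change of octanoate over vehicle with its standard error (SE). No order of levels between genes could therefore be tested against the spread between libraries. Intervals given below are 95% intervals computed from that fold change and standard error.

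These 6 proteins act mainly as repressors. ZEB1 and ZEB2 are zinc finger and homeodomain proteins, SNAI1 (Snail) and SNAI2 (Slug) are zinc finger proteins, and all of these bind E-box sequences in genes such as CDH1, which encodes E-cadherin. TWIST1 and TWIST2 are basic helix-loop-helix proteins that bind E-boxes as dimers with E proteins. Melanocytes come from the neural crest, where several of these factors act in migration. In melanoma, SNAI2 and ZEB2 are known from differentiated, MITF-expressing cells, and ZEB1 and TWIST1 from undifferentiated, invasive cells.

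RefSeq promoter sequences (GRCh38.p14) were matched for 3 of the 6 members, ZEB1, ZEB2 and TWIST2. One upstream stretch per gene, the 250 bases before its outermost start, is shown because the gene-start regions described below lie over or against it. The stretches are chr10:31318167-31318416 on the plus strand for ZEB1, chr2:144520120-144520369 on the minus strand for ZEB2 and chr2:238847835-238848084 on the plus strand for TWIST2. They are written 5′ to 3′, with capitals marking the letters CACCTG on either strand, the E-box bound by ZEB and SNAI proteins.
ZEB1: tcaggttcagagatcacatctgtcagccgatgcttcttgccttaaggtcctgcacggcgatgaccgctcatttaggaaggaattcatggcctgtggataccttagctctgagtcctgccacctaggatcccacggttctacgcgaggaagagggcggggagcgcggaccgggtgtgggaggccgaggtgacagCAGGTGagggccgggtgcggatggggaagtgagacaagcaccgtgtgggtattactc
ZEB2: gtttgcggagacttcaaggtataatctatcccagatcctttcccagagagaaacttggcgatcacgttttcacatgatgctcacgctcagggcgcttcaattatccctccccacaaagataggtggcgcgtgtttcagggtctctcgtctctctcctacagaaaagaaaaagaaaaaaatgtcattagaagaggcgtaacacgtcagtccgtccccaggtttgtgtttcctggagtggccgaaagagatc
TWIST2: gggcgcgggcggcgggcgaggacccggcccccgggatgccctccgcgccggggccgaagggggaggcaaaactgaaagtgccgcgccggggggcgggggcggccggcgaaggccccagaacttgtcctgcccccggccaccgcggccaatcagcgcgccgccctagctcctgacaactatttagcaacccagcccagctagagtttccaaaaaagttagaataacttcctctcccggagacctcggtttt

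The ZEB1 stretch holds 1 CACCTG match, which begins 57 bases before the start, and the ZEB2 and TWIST2 stretches hold 0. RefSeq lists 7 ZEB1 starts, and their 7 stretches hold 3 CACCTG matches in all, 1 in the stretch shown and 2 in the stretch chr10:31318966-31319215, which lies wholly inside the listed region. Among the 35116 RefSeq promoter stretches of the same length, 17.5% hold at least 1. CATCTG, an E-box letter order bound by TWIST proteins, was present once in the ZEB1 stretch shown and not in the ZEB2 and TWIST2 stretches, against 12.2% of all stretches. TGANTCA, the AP-1 motif, was in none of these 3 stretches and in 6.57% of all. A match is a description of the letters and not evidence of binding. Base composition differed between the genes: GC content was 48.0% for ZEB2, 59.2% for ZEB1 and 68.4% for TWIST2, against a median of 58.0% over all stretches. The TWIST2 stretch had 26 CpG dinucleotides, the ZEB2 stretch 12 and the ZEB1 stretch 15, and the median over all was 11. All 250 bases lay inside a listed region for ZEB2 and for TWIST2, and 66 did for ZEB1. The same listed region covers 5 of the 7 ZEB1 starts.

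A few facts of the whole table bear on every value below. The authors' adjusted p-values cover the 11185 regions whose mean reached 63.8 normalized reads, called tested regions, and 3 of the 34 member regions (in ZEB2, SNAI2 and TWIST1) are among them. Per the authors' deposited table the median log2 fold change of tested regions is 0.19 and that of all nuclear regions 0.23, so a value near 0.2 is the middle of the data and not a rise of its own. Of 6 melanocyte lineage genes (MITF, SOX10, PMEL, MLANA, TYR, DCT), 5 had a listed region within 1 kb of a gene end and only MITF had a tested one. The keratinocyte genes KRT5 and KRT14 and the endothelial genes PECAM1 and CDH5 had none, whereas both immune genes, PTPRC and CD3E, had one, tested for CD3E. Accessibility at a gene end is not expression.

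No region of the 6 genes changed detectably with octanoate. Of the 3 tested member regions in the authors' deposited table, 0 passed the adjusted p threshold of 0.05 (DESeq2 with Benjamini-Hochberg adjustment), where 1.02% of all tested regions did, every one of them higher. At an unadjusted p under 0.05 the count was again 0 of 3 tested regions, beside 14.9% of all tested regions, and 0 of all 34 member regions, beside 3.76% of all listed regions. With 3 tested regions these counts say little about the genes as a set. The smallest unadjusted p of a member region per the authors' deposited table was 0.101, in TWIST2. The 95% interval of the log2 fold change included 0 in 34 of 34 regions, and it also included the tested median in 34 of 34.

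**Figure D1:**
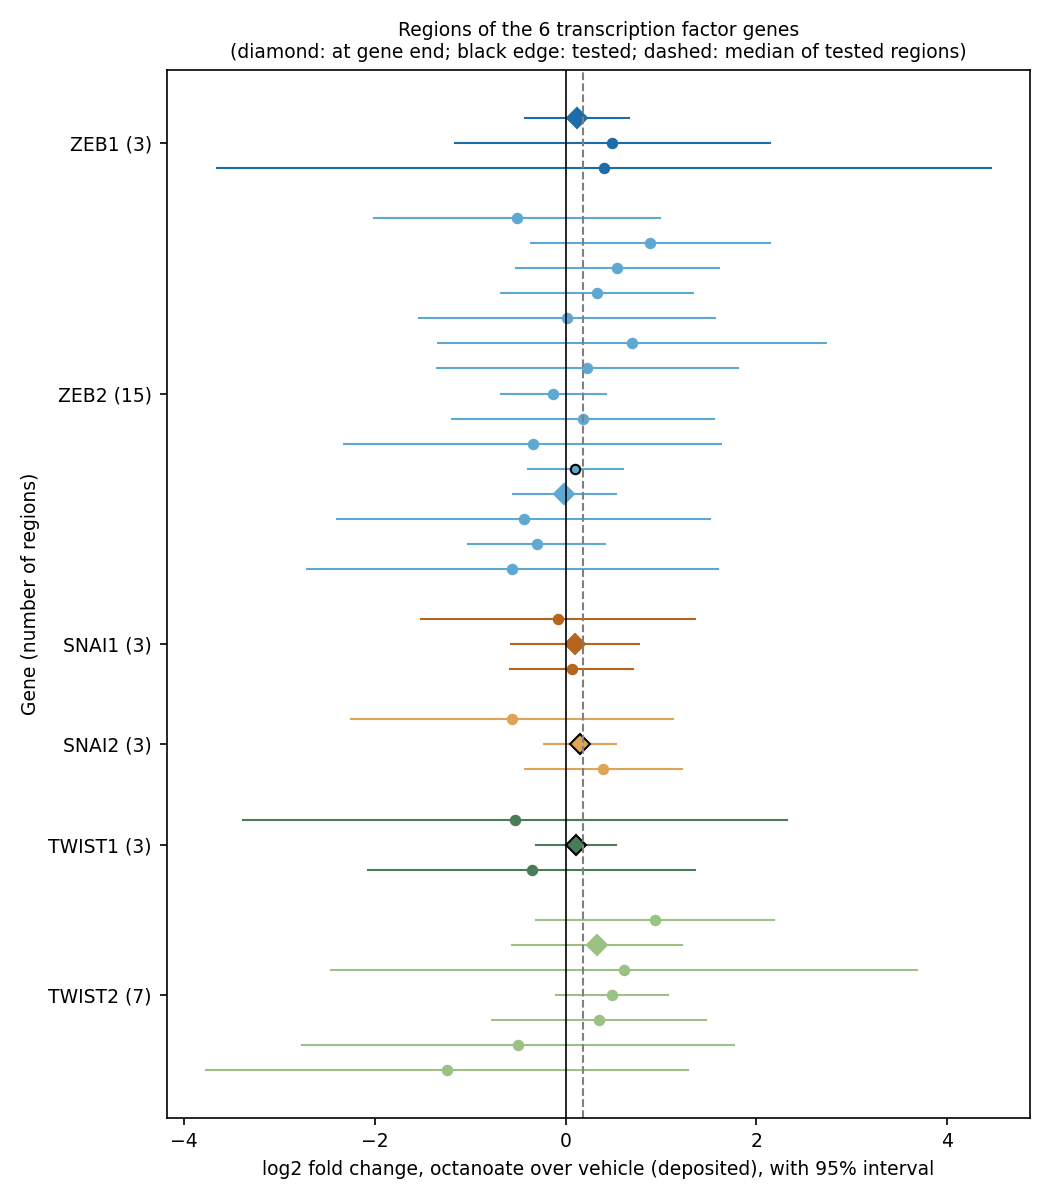
Log2 fold change of octanoate over vehicle (x axis, the authors' deposited value with its 95% interval) for the 34 member regions, by gene and in chromosome order within a gene. Diamonds are the regions over a gene end, black edges mark the 3 tested regions, the solid line is 0 and the dashed line is the tested median of 0.19; every interval crosses both lines.

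One region covered an end of each of the 6 genes: the start in ZEB1, ZEB2 and TWIST2, and 1 end of SNAI1, SNAI2 and TWIST1, whose strand was not used here. Their deposited log2 fold changes ran from -0.01 in ZEB2 to 0.33 in TWIST2 with a median of 0.12 per the authors' deposited table, and 5 of the 6 were below the tested median. Only the TWIST2 value was above it.

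SNAI2, the Slug gene, had the strongest member region. It lies at chr8:48920465-48922289 over the upper end of the gene, and its mean of 117.7 normalized reads per the authors' deposited table was higher than that of 97.1% of nuclear regions. The mean and fold change together imply about 112 reads with vehicle and 124 with octanoate. The log2 fold change per the authors' deposited table was 0.15 (SE 0.19, interval -0.23 to 0.53, adjusted p 0.751). On the linear scale this interval runs from 0.854-fold to 1.44-fold, so a doubling or a halving lies outside it. The SNAI2 region is thus the member for which the data set the tightest limits.

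The other SNAI2 regions were weaker. A region 4.08 kb beyond the upper end (chr8:48925507-48926070, mean 25.3) had a log2 fold change of 0.40 (SE 0.42) per the authors' deposited table. Inside the gene, a region with a mean of 6.57 had -0.56 with a standard error of 0.86 per the authors' deposited table. These SNAI2 values point in opposite directions, and the intervals of both include 0.

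TWIST1 followed the same layout as SNAI2, with 1 strong region over the upper end of a short gene. This region, chr7:19116206-19118125, had a mean of 106.5 normalized reads per the authors' deposited table, above 96.4% of nuclear regions. Implied levels were 102 reads with vehicle and 111 with octanoate. Its log2 fold change per the authors' deposited table was 0.11 (SE 0.21, interval -0.31 to 0.53, adjusted p 0.846), or 0.807-fold to 1.44-fold over the interval. The remaining TWIST1 regions, with means of 2.89 and 6.23, had log2 fold changes of -0.53 and -0.36 with standard errors of 1.46 and 0.87 per the authors' deposited table. With standard errors this large not even a halving could be told from no change.

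SNAI1, the Snail gene, lacked a tested region. Its region over the lower end (chr20:49982460-49983188) had a mean of 37.5 and a log2 fold change of 0.10 (SE 0.34, interval -0.57 to 0.78) per the authors' deposited table. A second region 0.425 kb beyond the upper end (chr20:49989311-49990107) was about as strong, with a mean of 40.3 and a log2 fold change of 0.06 (SE 0.33) per the authors' deposited table. The third region, 3.60 kb below the gene, had a mean of 9.19 and a log2 fold change of -0.08 per the authors' deposited table. All 3 SNAI1 values were thus small beside their standard errors of 0.33 to 0.73.

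ZEB1 and ZEB2 are paralogs with long genes, and their accessible landscapes differed in the number of regions. ZEB2 had 15 listed regions in a window of 156 kb, or 9.61 per 100 kb, a density above that of 81.1% of 20037 protein-coding genes cut by the same window. ZEB1 had 3 regions in 231 kb, or 1.30 per 100 kb, above that of 10.2% of these genes. The median gene had 5.28 per 100 kb. The compared genes were not matched for length, and density depends on it. SNAI1, SNAI2 and TWIST1, also with 3 regions each but in windows of 23.8 to 25.9 kb, stood above 87.5% to 90.2%. Both genes had a region of similar mean over the start: 55.7 for ZEB1 and 58.4 for ZEB2 per the authors' deposited table. Per kb of region the mean was 20.9 for ZEB1 and 36.8 for ZEB2, because the ZEB1 region was 2665 bp wide and the ZEB2 region 1587 bp.

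The start region of ZEB1 (chr10:31318351-31321015) also covers starts of the antisense RNA gene ZEB1-AS1. Its log2 fold change was 0.12 (SE 0.28, interval -0.42 to 0.67) per the authors' deposited table, with implied levels of 53.3 reads for vehicle and 58.1 for octanoate. The pair of regions deep inside the gene had means of 6.54 and 1.68 and log2 fold changes of 0.49 (SE 0.84) and 0.40 (SE 2.07) per the authors' deposited table. A value with an error of that size carries no information on direction.

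The ZEB2 start region (chr2:144519923-144521509), which also overlaps the span of the antisense RNA gene ZEB2-AS1, had a log2 fold change of -0.01 (SE 0.27, interval -0.55 to 0.52) per the authors' deposited table. Implied levels were nearly equal, 58.7 reads for vehicle and 58.1 for octanoate. The strongest ZEB2 region (chr2:144515713-144518710, 1.41 kb inside the gene and 2998 bp wide) was the 1 tested ZEB2 region, with a mean of 73.1 and a log2 fold change of 0.10 (SE 0.25, interval -0.39 to 0.60, adjusted p 0.880) per the authors' deposited table. A narrower region 8.95 kb inside (chr2:144510315-144511167) was the most accessible ZEB2 region per kb, at 64.4 normalized reads per kb, and its log2 fold change was -0.13 (SE 0.28) per the authors' deposited table. Outside the gene, 3.64 kb before the start and overlapping the noncoding gene LINC02993, a region with a mean of 32.4 had the lowest value among the stronger ZEB2 regions, -0.30 (SE 0.37) per the authors' deposited table. The highest among the stronger ones lay deep in the gene (chr2:144427053-144427524, mean 15.0), at 0.54 (SE 0.54) per the authors' deposited table.

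Along ZEB2 the values were lower around the start than in the body of the gene, a split chosen after the values were seen. Of the 8 regions within 10 kb of the start 6 were below 0, with a median log2 fold change of -0.22 per the authors' deposited table. Of the 7 regions farther inside 1 was below 0, with a median of 0.33 per the authors' deposited table. The 7 inner regions were weak, with means of 4.65 to 16.4, and the intervals of all 15 overlap 0. The difference between these stretches was not tested, because regions of 1 gene in the same libraries are not replicates.

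TWIST2 had a median log2 fold change of 0.35 over its 7 regions per the authors' deposited table. The region over its start (chr2:238847744-238848563) was the weakest of the 6 gene-end regions, with a mean of 22.3, a log2 fold change of 0.33 and a standard error of 0.46 per the authors' deposited table. Its strongest region lay 16.0 kb inside the gene (chr2:238864098-238864944), with a mean of 49.1 and 58.0 normalized reads per kb. There the log2 fold change was 0.49 (SE 0.30, interval -0.10 to 1.08, unadjusted p 0.101) per the authors' deposited table, with implied levels of 40.8 reads for vehicle and 57.4 for octanoate. This was the member region farthest from 0 relative to its error, and it was not among the tested regions. The extremes of all member regions were also in TWIST2, 0.94 (SE 0.64, mean 11.2) 6.08 kb before the start and -1.24 (SE 1.29, mean 3.52) 2.37 kb past the other end, per the authors' deposited table.

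**Figure D2:**
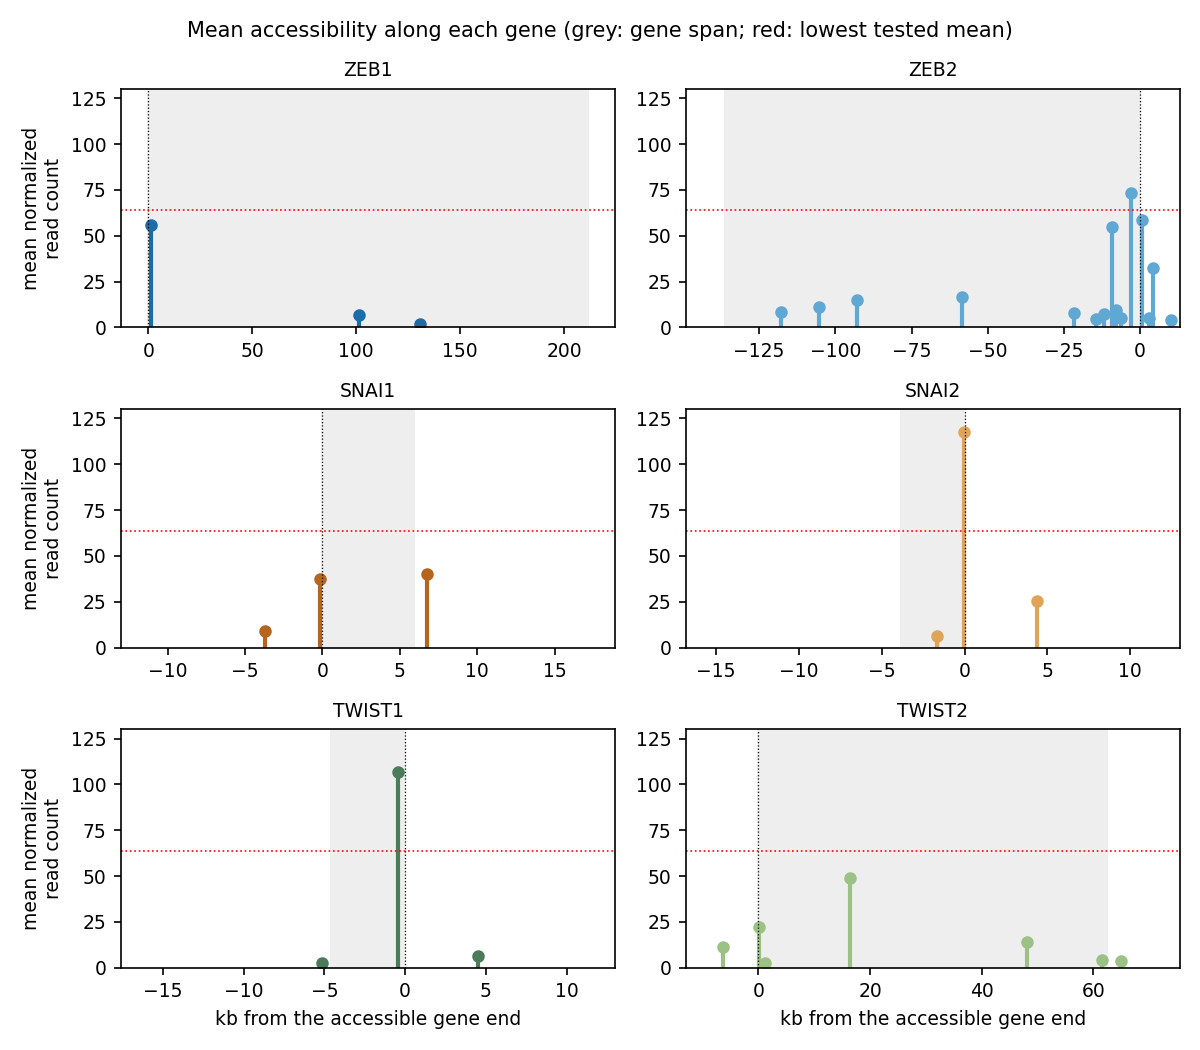
Mean normalized read count over the 4 libraries (y axis) of each member region against its distance in kb from the gene end that a region covers (x axis, in chromosome direction), in a panel per gene with the gene span in grey. The red line is the lowest tested mean of 63.8, which 1 region each of ZEB2, SNAI2 and TWIST1 passes, and ZEB2 alone shows a cluster of 8 regions around its start.

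Ordered by mean per kb of region, the 6 gene-end regions ran SNAI2 (64.5), TWIST1 (55.5), SNAI1 (51.4), ZEB2 (36.8), TWIST2 (27.3) and ZEB1 (20.9 normalized reads per kb). The pooled means give no spread for this order. They were set against the strongest region within 1 kb of either end in the 14663 protein-coding genes that have one. The mean of SNAI2 stood above 78.7% and that of TWIST1 above 74.4%. ZEB2 stood above 45.9%, ZEB1 above 44.0%, SNAI1 above 29.3% and TWIST2 above 17.0%. The SNAI1 share uses the region over its lower end, although a stronger one (mean 40.3) lies 0.425 kb from its upper end. Of the 34 regions 15 had a mean at or above the median of all regions, 12.2.

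Taken over all 34 regions, log2 fold changes ran from -1.24 to 0.94 with a median of 0.11 per the authors' deposited table, and 13 (38.2%) were below 0. The same window around all protein-coding genes gave a median of 0.21 over 73543 regions, with 27.4% below 0, per the authors' deposited table. Among members at or above the median mean signal 3 of 15 were below 0, with a median of 0.12, and among weaker members 10 of 19 were, with a median of -0.08, per the authors' deposited table. By gene the medians were 0.40 (ZEB1), 0.35 (TWIST2), 0.15 (SNAI2), 0.06 (SNAI1), 0.01 (ZEB2) and -0.36 (TWIST1) per the authors' deposited table. The direction of several depends on the window and the scale: with no extension of the gene span the medians of SNAI2, TWIST1 and ZEB2 were -0.21, 0.11 and 0.15. After the median of all regions was subtracted, SNAI1, SNAI2 and ZEB2 stood at -0.17, -0.08 and -0.21 and TWIST2 at 0.12. In ZEB1, ZEB2 and TWIST1 the median was set by a weak region, and the gene-end regions of TWIST1 and ZEB1, at 0.11 and 0.12 per the authors' deposited table, differed by less than their errors.

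**Figure D3:**
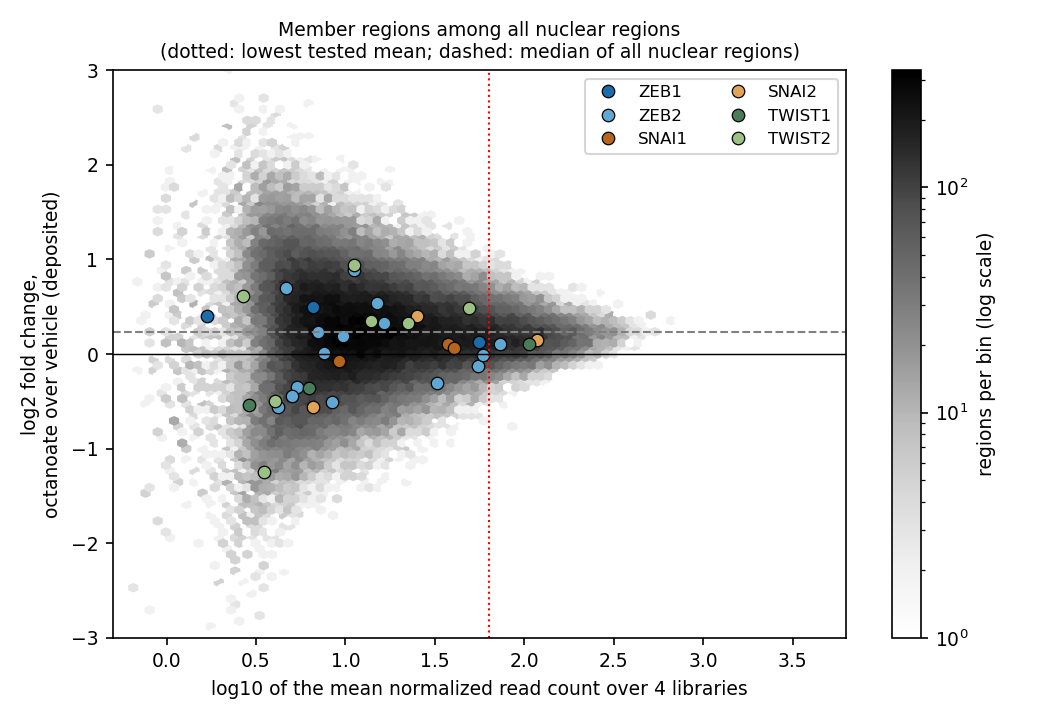
Log2 fold change of octanoate over vehicle (y axis, authors' deposited value) against log10 of the mean normalized read count (x axis) for all nuclear regions (grey bins) and the 34 member regions (coloured by gene). The dotted line is the lowest tested mean of 63.8 and the dashed line the median of all nuclear regions, 0.23; members with a mean of at least 37.5 sit between -0.13 and 0.49, and weaker ones spread more widely.

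The standard errors set what could have been seen. The largest unadjusted p among called regions was 0.000509, so a tested region needed a log2 fold change of 3.48 standard errors. That is 0.67 for the SNAI2 gene-end region, 0.74 for the TWIST1 gene-end region and 0.88 for the tested ZEB2 region. ZEB1, SNAI1 and TWIST2 had no tested region. The deposited adjusted p of their regions lies outside the Benjamini-Hochberg adjustment and is not printed here. At an unadjusted p of 0.05, a doubling or halving exceeded the size needed in 12 of the 34 regions, all with a mean of at least 22.3. In the other 22, with means up to 16.4, a change of that size was not detectable at these standard errors. The 95% interval lay wholly between a halving and a doubling in 8 regions.

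Other genes of the programme were examined with the same window, from 5 lists. The miR-200 genes encode microRNAs that target ZEB1 and ZEB2 mRNAs and are themselves repressed by ZEB proteins. Their mature 3p sequences from RefSeq (GRCh38.p14) are shown because the seed, in capitals (bases 2 to 8), splits them into a group of 3 with AAUACUG and a pair with AACACUG.
hsa-miR-200b-3p: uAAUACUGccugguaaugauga
hsa-miR-200c-3p: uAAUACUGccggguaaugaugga
hsa-miR-429: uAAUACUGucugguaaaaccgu
hsa-miR-200a-3p: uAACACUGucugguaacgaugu
hsa-miR-141-3p: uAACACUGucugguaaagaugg

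The 5 miR-200 genes shared 4 listed regions. On chromosome 12 the strongest (chr12:6961121-6962447, mean 68.7), 1.25 kb from MIR200C, had a log2 fold change of 0.19 (SE 0.25, adjusted p 0.753) per the authors' deposited table. Another in the MIR200C and MIR141 window (chr12:6970121-6971162, mean 65.4) had 0.26 (SE 0.26, adjusted p 0.671) per the authors' deposited table. It lies farther off, 6.355 kb from MIR200C and 5.93 kb from MIR141. On chromosome 1 a single region, 8.33 kb from MIR200B, had 0.15 (SE 0.29) per the authors' deposited table, and MIR429 had no listed region in its window. The 4 values, with a median of 0.17 per the authors' deposited table, lay near the tested median.

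The list of partners, corepressors and degraders was the only list with a region past the threshold. Of its 20 tested regions in the authors' deposited table, 1 had an adjusted p under 0.05, beside 1.02% of all tested regions, and 3 had an unadjusted p under 0.05, all higher, beside 14.8% higher of all tested regions. The called region lies 2.42 kb from the gene end of ID2 (chr2:8678266-8679637, mean 178.8). ID proteins bind E proteins and keep them from dimerising with basic helix-loop-helix factors such as TWIST1. The ID2 region rose, with a log2 fold change of 0.62 (SE 0.16, adjusted p 0.0190), per the authors' deposited table, from an implied 141 to 217 normalized reads. After the tested median was subtracted its adjusted p was 0.723 (Benjamini-Hochberg over tested regions), and with the adjustment over all listed regions it was 0.170, so the call rests on the authors' scale and filter. A second ID2 region, over the gene end (chr2:8680971-8682571, mean 223.9), had 0.47 (SE 0.14, adjusted p 0.0696) per the authors' deposited table. The third at an unadjusted p under 0.05, named after its value was seen, covers the whole ID1 gene (chr20:31603905-31609143, mean 313.8) with 0.39 (SE 0.12, adjusted p 0.0810) per the authors' deposited table. With the tested median subtracted, unadjusted p-values from fold change and standard error were 0.0064 and 0.0516 for these ID2 regions. For the ID1 region the value was 0.108. The list's median over 124 regions was 0.18 per the authors' deposited table.

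The 22 epithelial genes, which the members are known to repress, had 93 regions, 5 of them tested, and a median log2 fold change of 0.18 per the authors' deposited table. None of the 5 had an adjusted p under 0.05, beside 1.02% of all tested regions, or an unadjusted p under 0.05, beside 14.9%. The smallest unadjusted p of the list, 0.0177, belonged to a weak region 7997 bp from the gene end of EPCAM, an epithelial adhesion molecule, with a mean of 20.6 and a log2 fold change of 1.11 (SE 0.47) per the authors' deposited table. A region of GRHL2, an epithelial transcription factor, came next with 0.86 (SE 0.49, unadjusted p 0.0819) per the authors' deposited table. Neither was tested for the adjusted p.

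The 16 mesenchymal genes had 93 regions, 15 of them tested, with a median of 0.14 per the authors' deposited table. Below 0 were 32.3% of the 93 regions, beside 27.9% of all nuclear regions. The 15 tested regions had a median of 0.07, beside 0.19 for all tested regions, per the authors' deposited table. None passed the adjusted threshold, beside 1.02% of all tested regions, and 1 of the 15 had an unadjusted p under 0.05, beside 14.9%. That region, named after its value was seen, lies 6.74 kb from SPARC, which encodes a matricellular protein (mean 184.8), with 0.33 (SE 0.16, adjusted p 0.292) per the authors' deposited table. After the tested median was subtracted, its unadjusted p from fold change and standard error was 0.365. The pair with the smallest unadjusted p in this list also belonged to SPARC, with log2 fold changes of 0.86 (SE 0.32) and 0.74 (SE 0.31) at means of 43.5 and 46.2 per the authors' deposited table, and neither was tested. Further tested regions were chosen after their values were seen. The strongest SPARC region, over a gene end (mean 258.6), had 0.02 (SE 0.14) per the authors' deposited table. The CDH2 gene-end region (mean 174.5) had -0.27 (SE 0.16). MMP2 regions ran both ways, among them -0.43 (SE 0.22) and 0.41 (SE 0.23) at means of 88.9 and 83.5. The intervals of all these further regions include 0.

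The 10 other factors of the programme had 35 regions, 8 tested, and a median of 0.14 per the authors' deposited table, with 0 tested regions at an adjusted p under 0.05 (1.02% of all tested regions) or an unadjusted p under 0.05 (14.9%). The lowest unadjusted p was 0.00671 for a weak, untested region of PRRX1, a homeobox factor of mesenchyme (mean 18.1, log2 fold change 1.37, standard error 0.50), per the authors' deposited table. A SOX9 region followed with 1.27 (SE 0.87) per the authors' deposited table.

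**Figure D4:**
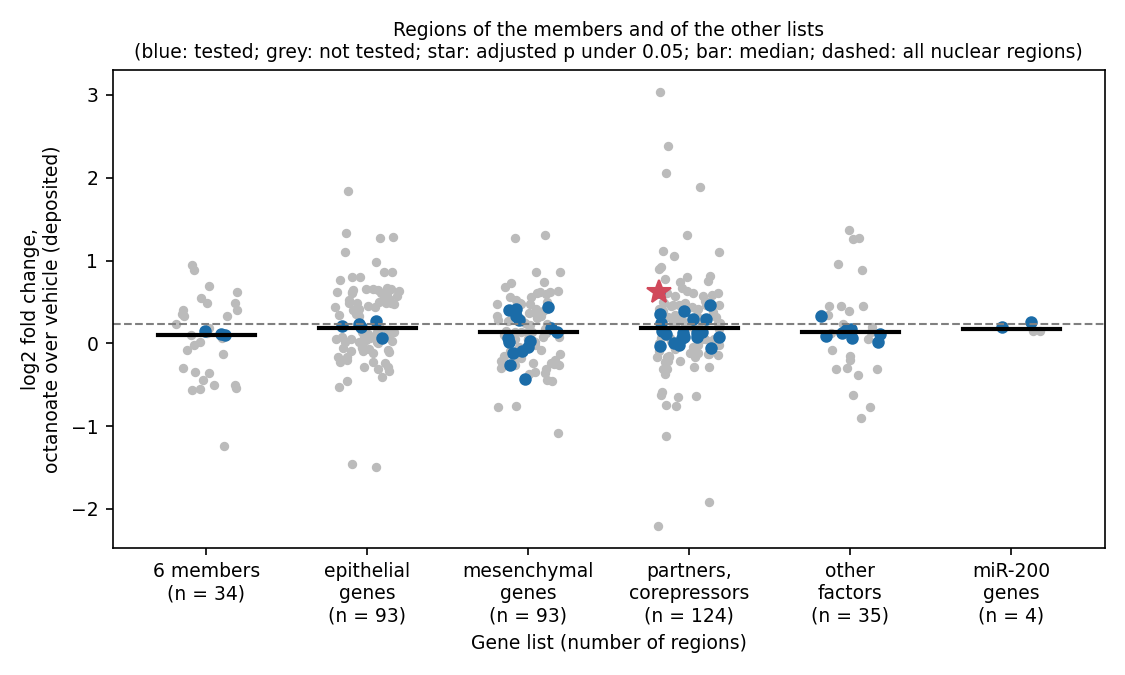
Log2 fold change of octanoate over vehicle (y axis, authors' deposited value) of each region of the 6 members and of the 5 other lists (x axis, with the number of regions), with tested regions in blue, others in grey, medians as bars and the median of all nuclear regions, 0.23, dashed. The star is the ID2 region at 0.62, the single region with an adjusted p under 0.05, and all 6 medians lie between 0.11 and 0.18.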

How the data were processed

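The assay was ATAC-seq in 4 libraries, grouped by sample title. Trim Galore, cutadapt, FastQC, Bowtie2, Picard, MACS2, featureCounts, DESeq2 and bedtools 2.29.1, and the build hg38, are named in the submitters' processing notes; how regions were merged, the scaling and any Tn5 shift are not given in the sources used here. Per the file headers, the deposited signal is the mean normalized read count over all libraries. The deposited log2 fold change, its standard error, the deposited score (fold change over error, recomputed to within 2.31e-14) and the deposited p-values are the authors'. The deposited adjusted p equalled Benjamini-Hochberg over 11185 regions with a mean of at least 63.8; others are treated as not tested. No count test was possible, and depth per library is unknown.

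Intervals, implied group levels (from mean and fold change), window overlaps and centring were computed with Python 3.11.15, numpy 2.4.6, pandas 2.3.3 and scipy 1.17.1. Only the Benjamini-Hochberg adjustment and the window overlaps were tested on simulated data. Starts in the table count from 0 and were printed from 1. RefSeq GRCh38.p14 gave gene spans for all 6 members and the 73 listed genes. Named regions per member were those over a gene end, tested, strongest, and highest and lowest in fold change at or above the median mean; per list, those past the threshold and the 2 with the smallest p. Other member regions in the text were chosen after their values were seen, among them the ZEB2 region highest per kb, the TWIST2 extremes and the weak regions of ZEB1, SNAI1, SNAI2 and TWIST1. Members and lists were chosen with earlier results of these data known.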

Additional observations from a re-analysis of the deposited data

How the results depend on the processing

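The count of 0 member regions with an adjusted p under 0.05 stayed 0 in each of 6 alternatives: an adjusted p under 0.1, adjustment over all listed regions, centring on the tested or on the overall median, no extension of the gene span (24 regions) and an extension of 50 kb (61 regions, 5 tested). Several of these could give no other count. The smallest unadjusted p of a member region (DESeq2) was 0.101, and an adjusted p is never below the unadjusted one. The looser threshold and the adjustment over all listed regions could therefore only give 0, and no extension only removed regions. The count at an unadjusted p under 0.05 stayed 0 in each of 5, of which the count over all listed regions was added after seeing the data. There too, no extension could only give 0. The median log2 fold change of the member regions, 0.11, was 0.17 with no extension, 0.15 with 50 kb, and 0.10 to 0.12 with each gene left out. Relative to the median of all regions it was -0.12, below 0 because the subtracted median exceeds it. By gene, the SNAI2 median became -0.21 and the TWIST1 median 0.11 with no extension, since 2 and 1 regions remained, and the ZEB2 median 0.15. With 50 kb the medians were 0.03 (TWIST1), 0.17 (SNAI1), 0.26 (ZEB1) and 0.0024 (ZEB2). At or above the median mean signal they were 0.11 (TWIST1), 0.12 (ZEB1), 0.27 (SNAI2) and 0.04 (ZEB2). Subtracting the overall median gave -0.17 (SNAI1), -0.08 (SNAI2), -0.21 (ZEB2), -0.58 (TWIST1), 0.17 (ZEB1) and 0.12 (TWIST2). No gene median was tested, and those of genes with 3 regions can turn on single regions. No paired analysis was possible because single libraries have no column in the deposited file. This is also why leaving out a replicate, other scalings and count tests were not run.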
